A study of Homo sapiens with 4 samples.

Results

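The long non-coding RNAs described here are 9 named regulators, NEAT1, MALAT1, TUG1, PVT1, MIR22HG, MIR17HG, H19, DANCR and CYTOR, chosen by name. Each library lists 23459 genes by NCBI Gene identifier, and all 9 were found among them by their current symbols. RNA-Seq was performed on hTERT RPE-1 cells, a human line derived from the retinal pigment epithelium, immortalized with telomerase and labelled wild type. All cells had been starved for 48 h in medium with 0.1% serum and then received 200 μM merbarone, a catalytic inhibitor of type II DNA topoisomerases, the enzymes that pass one DNA duplex through a transient break in another. There are 2 groups, exposed to the drug for 4 h or 8 h, with 2 libraries each, named by the replicate number of their labels. Untreated cells were not analysed here, so time in the drug and time in low serum cannot be told apart. The authors call the replicates biological, but no labels say whether they were separate cultures, so each p-value measures the spread between these samples only.

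Long non-coding RNAs are described as acting as RNA and not through a protein, though TUG1 is now listed as protein-coding. NEAT1 is the scaffold of paraspeckles, nuclear bodies that hold RNA-binding proteins, while MALAT1 lies in nuclear speckles, where splicing factors are stored. PVT1 is encoded beside the oncogene MYC, and TUG1 is a widely expressed RNA of nucleus and cytoplasm. MIR22HG, MIR17HG and H19 are host transcripts from which microRNAs are cut, and DANCR and CYTOR are RNAs described in cell growth and differentiation.

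The libraries held between 8064450 and 10324697 counts on genes, with the lowest number in replicate 2 at 8 h. Of the markers of retinal pigment epithelium, 7 of 12 passed the filter described next, and their summed CPM, which are counts scaled to library size, ranged from 859 to 913 at 4 h and from 727 to 758 at 8 h. Their median log2 fold change was 0.18, and KRT18 was the 1 marker that passed the test, as lower. The keratin genes KRT8 and KRT18, at 3042 to 3966 and 1927 to 3881 counts per library, held most of the counts of this list. MITF, with 669 to 882 counts, PAX6, with 295 to 429, and OTX2, with 132 to 193, were retained and did not pass the test. The defining visual-cycle genes were near 0, with RPE65 at 2 to 7 counts and RLBP1 at 0 to 2 counts per library. The mesenchymal genes VIM, FN1, CDH2 and COL1A1 were all retained, with VIM and FN1 past the test as higher and COL1A1 as lower, and their summed CPM went from 22923 and 23173 to 26879 and 27808. EPCAM had 0 counts in all libraries, and the blood markers PTPRC and CD14 had 3 to 8 counts. The part of cell identity in the values below was not tested.

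Of the 9 RNAs, 8 reached more than 1 CPM in 2 or more libraries and could be tested, and H19 did not. After TMM normalization, which corrects for depth and composition, and the quasi-likelihood test of edgeR with a Benjamini-Hochberg adjusted p below 0.05, PVT1 and DANCR were higher at 8 h and NEAT1, TUG1 and MIR22HG were lower. MALAT1, MIR17HG and CYTOR did not pass. Thus 2 of 8 were higher, where 19.9% of the 12559 retained genes were, and 3 of 8 were lower, where 18.8% of the retained genes were. NEAT1 was the 1 RNA that also changed by more than 1 on the log2 scale, the threshold for a differentially expressed gene (DEG), which 1.45% of the retained genes passed as higher and 3.88% as lower. The libraries of the times did not overlap for 7 of the 8 RNAs, with PVT1, CYTOR and DANCR higher at 8 h and NEAT1, TUG1, MIR22HG and MIR17HG lower. Over the retained genes, 34.8% were higher in both 8 h libraries and 34.9% lower, so that the times were separated for most genes. The median log2 fold change of the 8 RNAs was -0.20, beside -0.0024 for all retained genes. In libraries of whole cultures, fewer cells that make an RNA and less of it per cell cannot be told apart.

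**Figure D1:**
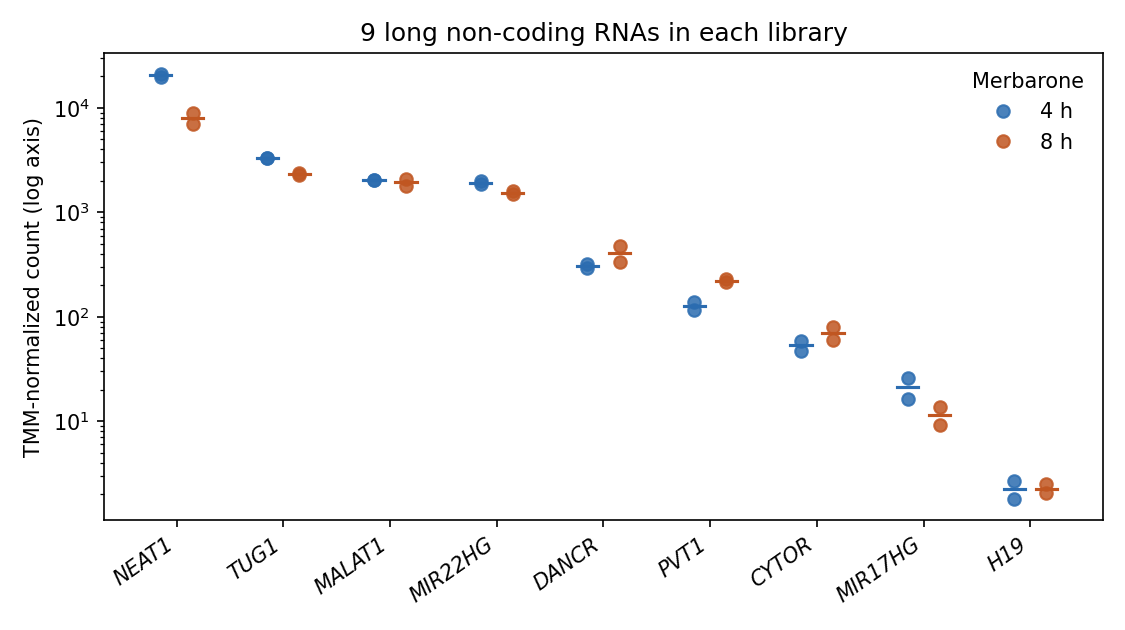
Points give the TMM-normalized count of each RNA in each library on a log axis, with 4 h and 8 h of merbarone side by side, and short lines give the mean of the 2 libraries. NEAT1 goes from 20988 and 19954 at 4 h to 8879 and 7085 at 8 h, PVT1 moves up, and the points of MALAT1 overlap.

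NEAT1 fell by 1.36 on the log2 scale, the largest change among the 8 RNAs tested. The gene (NCBI Gene 283131) lies on the plus strand of chromosome 11 from 65190245 to 65213011 on hg19 and is 1 unspliced exon in its longest form. It makes a short, polyadenylated form and a long form that builds the paraspeckle and whose end is held by a triple helix of RNA in place of a poly(A) tail. The last 60 bases of both forms are shown because the libraries were made from polyadenylated RNA, and the capitals mark AATAAA, the signal for polyadenylation, which was found in the short form, beginning 11 bases from its end, and not in the window of the long form.
NEAT1 short form, chr11:65193925-65193984, plus strand: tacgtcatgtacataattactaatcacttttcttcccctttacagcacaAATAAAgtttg
NEAT1 long form, chr11:65212952-65213011, plus strand: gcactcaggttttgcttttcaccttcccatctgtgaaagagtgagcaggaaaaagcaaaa
Counts per gene do not separate these forms, so the values below are of their sum as the libraries caught it.

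The normalized counts of NEAT1 at 4 h were 20988 in replicate 1 and 19954 in replicate 2, against 8879 and 7085 at 8 h. Both 8 h libraries lay below both 4 h libraries, and replicate 2 at 8 h was the lowest. The mean went from 20471 ± 731 (SD, n = 2) to 7982 ± 1269 (SD, n = 2), which was 2.56-fold lower at 8 h. The log2 fold change was -1.36 with a standard error of 0.08 and a 95% interval from -1.54 to -1.18, and the adjusted p by edgeR with Benjamini-Hochberg adjustment was 1.14e-09. It passed the test and the DEG threshold under all 12 alternatives, with log2 fold changes between -1.55 and -1.21.

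NEAT1 took a large part of the reads of long non-coding genes, here those typed so by RefSeq, with TUG1 added. These include read-through loci that join neighbouring genes, such as SENP3-EIF4A1 with 1932 to 3194 counts per library. NEAT1 held 19.2% and 18.2% of the counts on all these genes at 4 h, and 9.18% and 7.95% at 8 h. As a share of the whole library, NEAT1 went from 0.227% and 0.216% to 0.0898% and 0.0707%. The other long non-coding genes, with TUG1 among them, held 0.953% and 0.972% of the library at 4 h and 0.888% and 0.819% at 8 h, so the share without NEAT1 was also lower in both 8 h libraries. Among 460 retained long non-coding genes, NEAT1 was number 30 in the order of falls. LINC00472, the DEG with the next highest normalized count among them, had a mean of 318 at 4 h and 144.3 at 8 h.

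MALAT1 did not pass the test. It is a single exon in its canonical form (NCBI Gene 378938) on the plus strand of chromosome 11, from 65265111 to 65275544 on hg19, downstream of NEAT1 on the same strand. Its main form, like long NEAT1, is known to end at a cut by RNase P and to be closed by a triple helix. The last 60 bases of the 11 annotated transcripts that end at one base are shown for comparison with NEAT1, with AATAAA in capitals, beginning 23 bases from the end. Whether the cut lies at this base was not examined.
MALAT1, chr11:65273881-65273940, plus strand: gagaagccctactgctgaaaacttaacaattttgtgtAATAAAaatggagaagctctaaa
The normalized counts were 2042 and 2023 at 4 h against 2102 and 1768 at 8 h. Replicate 1 at 8 h was the highest library and replicate 2 at 8 h the lowest, so the times overlapped. The means were 2033 ± 13.5 (SD, n = 2) and 1935 ± 236 (SD, n = 2), and the log2 fold change of -0.07 had a 95% interval from -0.25 to 0.11. The adjusted p by edgeR with Benjamini-Hochberg adjustment was 0.548, and without replicate 2 at 8 h the log2 fold change turned to 0.048.

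TUG1 fell by 0.50 on the log2 scale. It lies on the plus strand of chromosome 22 from 31365231 to 31375381 on hg19 (NCBI Gene 55000), and both RefSeq and GENCODE now list it as protein-coding. Its normalized counts were 3284 and 3331 at 4 h against 2365 and 2300 at 8 h. Replicates were close at each time and both 8 h libraries were lower. The mean went from 3307 ± 33.3 (SD, n = 2) to 2332 ± 45.7 (SD, n = 2), with a standard error of 0.07 and a 95% interval from -0.66 to -0.35 for the log2 fold change. The adjusted p by edgeR with Benjamini-Hochberg adjustment was 2.61e-05, and TUG1 passed under all 12 alternatives.

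PVT1 rose by 0.81 on the log2 scale, the largest rise among the 8 RNAs. Its annotated transcripts span positions 128806772 to 129199347 of chromosome 8 on hg19, on the plus strand (NCBI Gene 5820), and the microRNA gene MIR1207 overlaps its exons over 87 bases. The normalized counts of PVT1 were 115.8 and 137.8 at 4 h against 229.1 and 213.7 at 8 h. Both 8 h libraries stood above both 4 h libraries. The mean went from 126.8 ± 15.6 (SD, n = 2) to 221.4 ± 10.9 (SD, n = 2), or 1.75-fold higher, with a standard error of 0.16 and a 95% interval from 0.48 to 1.13 on the log2 scale. The adjusted p by edgeR with Benjamini-Hochberg adjustment was 0.000446, and PVT1 passed under all 12 alternatives without reaching the DEG threshold. MYC, which encodes a growth-promoting transcription factor and lies 51575 bases from PVT1, had normalized counts of 3364 and 3351 at 4 h against 2904 and 2983 at 8 h. Its log2 fold change was -0.19 with a standard error of 0.07 and an edgeR adjusted p (Benjamini-Hochberg) of 0.044, and the call was lost without replicate 1 at 4 h (0.18), replicate 2 at 4 h (0.187) or replicate 1 at 8 h (0.0887). It was also lost with DESeq2, at an adjusted p of 0.0954, and with no filter on low counts, at 0.0578.

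**Figure D2:**
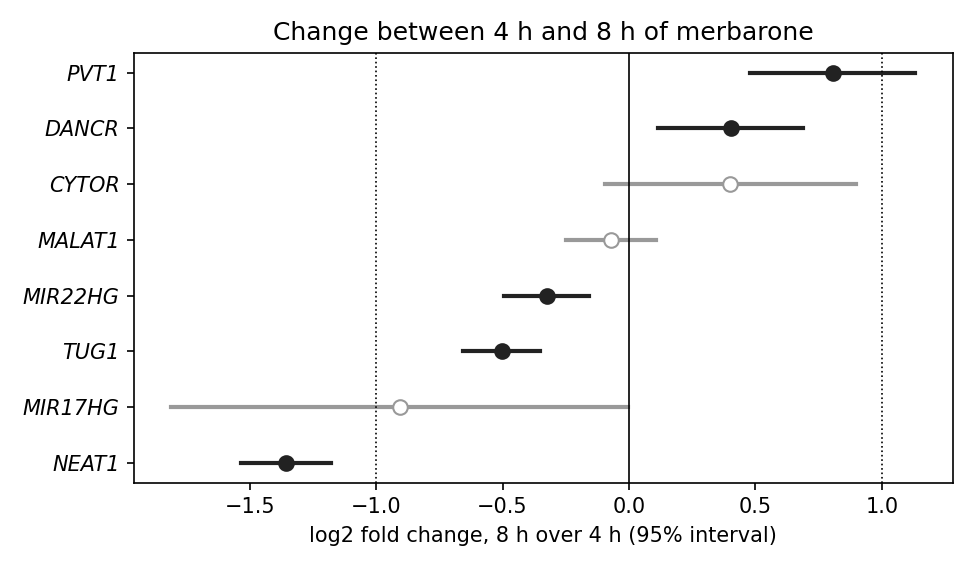
Points give the log2 fold change of 8 h over 4 h for the 8 RNAs tested, with 95% intervals from edgeR as bars. Filled points passed an adjusted p of 0.05, dotted lines mark a change of 1 on the log2 scale in either direction, and NEAT1, from -1.54 to -1.18, lies wholly beyond the lower line.

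The genes of proteins that work with NEAT1 and MALAT1, and those of nuclear RNA decay, were examined through 3 lists. All values of these lists are RNA levels, since proteins were not measured. Of 32 proteins of paraspeckles, all retained, 2 were higher, 15 were lower and 15 did not pass, with a median log2 fold change of -0.20 beside -0.0024 for all retained genes. Without either 4 h library 1 was higher. The largest fall was that of SFPQ, a core paraspeckle protein that binds NEAT1, with normalized counts of 1569 and 1366 at 4 h against 614.7 and 716.9 at 8 h and an adjusted p by edgeR (Benjamini-Hochberg) of 3.48e-08. Its log2 fold change was -1.14 with a standard error of 0.10. NONO, the partner of SFPQ, had means of 2740 and 2914 and did not pass. The members that rose were RBM7, by 0.51, and RBM14, which is needed for paraspeckles, by 0.36. NONO and RBM14 were named after their values were seen.

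Of 25 proteins of nuclear speckles, 24 were listed and retained, PRPF4B being the gene not listed, and 3 were higher, 11 lower and 10 not past the test, with a median of -0.18. Without replicate 2 at 4 h, 6 were lower. PNN, a speckle protein tied to splicing, fell most among the genes past the test, from 1139 and 1218 normalized counts at 4 h to 574.8 and 543 at 8 h, a log2 fold change of -1.07 with a standard error of 0.09. The splicing factor SRSF4 rose most, from 1160 and 1207 to 1722 and 1687, or 0.53 with a standard error of 0.08. SON, a protein at the core of speckles, rose by 0.45 and the splicing kinase CLK1 by 0.35. SRRM2, the other core protein, had means of 7589 and 6789 and did not pass. SON, CLK1 and SRRM2 were named after their values were seen.

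Nuclear RNA decay, which removes many non-coding transcripts, was represented by 24 genes of the exosome and its adaptors, all retained. Of these, 3 were higher, 10 were lower and 11 did not pass, and the median was -0.22. With library size alone in place of TMM the split was 1 higher and 15 lower, and without either 4 h library it was 1 and 6. Without replicate 2 at 8 h, 1 was higher and 7 were lower, and DESeq2 called 0 higher, with 2 at an unadjusted p below 0.05, and 5 lower. MTREX, the helicase that feeds the exosome, fell most, from 462.2 and 455.1 normalized counts to 225 and 254.7, a log2 fold change of -0.94 with a standard error of 0.12. EXOSC4, a subunit of the exosome ring, rose most among the genes past the test, from 78.97 and 92.47 to 121.7 and 140.4, or 0.61 with a standard error of 0.19. The other members that rose were ZC3H3 and RBM7, and RBM7 and PABPN1 stand in 2 lists each. These lists were chosen with earlier results known, and their counts stand beside 19.9% higher and 18.8% lower among all retained genes.

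**Figure D3:**
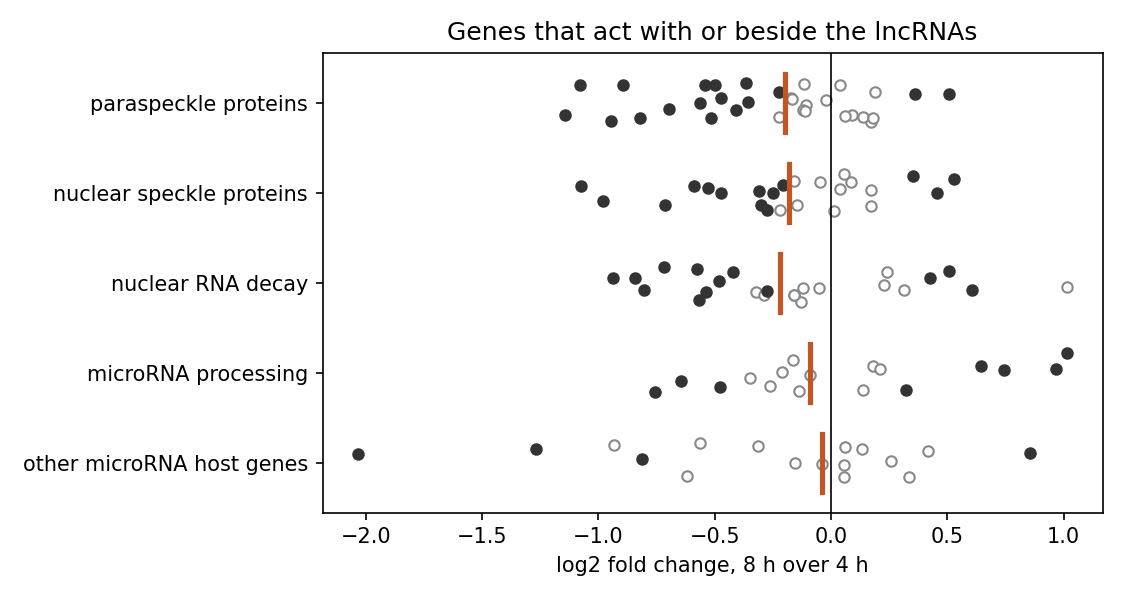
Each point is a retained gene of a list, placed by its log2 fold change of 8 h over 4 h, filled where it passed the edgeR test and open where it did not. Bars mark the medians, which lie between -0.22 for nuclear RNA decay and -0.04 for the other microRNA host genes.

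MIR22HG, the host of the microRNA miR-22, fell by 0.33 on the log2 scale. The gene (NCBI Gene 84981) is on the minus strand of chromosome 17 from 1614741 to 1620468 on hg19, and the protein-coding gene WDR81 overlaps it on the opposite strand with 0 exonic bases in common. The normalized counts of MIR22HG were 1856 and 1999 at 4 h against 1587 and 1487 at 8 h. Both 8 h libraries were lower than both 4 h libraries. The mean went from 1927 ± 101 (SD, n = 2) to 1537 ± 70.7 (SD, n = 2), and the log2 fold change had a standard error of 0.08 and a 95% interval from -0.49 to -0.16. The adjusted p by edgeR with Benjamini-Hochberg adjustment was 0.00317, and it was 0.0767 without replicate 2 at 4 h, where MIR22HG no longer passed.

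The mature microRNAs of MIR22HG are shown because they are what the host is known for, with the seed, bases 2 to 8 that pair with targets, in capitals, as given by RefSeq.
miR-22-3p: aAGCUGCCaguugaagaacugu
miR-22-5p: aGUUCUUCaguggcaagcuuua
The promoter of MIR22HG is shown as 250 bases before to 50 bases after its start in RefSeq on GRCh38.p14, with the GC box GGGCGG and the core TGACG of the cAMP response element in capitals on either strand.
MIR22HG, chr17:1716161-1716460, minus strand: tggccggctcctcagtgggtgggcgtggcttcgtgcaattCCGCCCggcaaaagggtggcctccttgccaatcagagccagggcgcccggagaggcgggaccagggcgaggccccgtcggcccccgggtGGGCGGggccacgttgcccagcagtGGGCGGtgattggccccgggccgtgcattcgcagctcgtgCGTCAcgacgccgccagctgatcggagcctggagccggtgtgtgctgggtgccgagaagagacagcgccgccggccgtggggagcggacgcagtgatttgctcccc
The GC box was found 3 times and TGACG 1 time there, without overlap, and the E-box CACGTG 0 times. Over 35116 such windows the GC box was in 45%, TGACG in 24.6% and CACGTG in 7.26%. Such matches describe the letters only.

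MIR17HG hosts the miR-17-92 cluster, microRNAs that promote growth and are given by their guide strands, with seeds in capitals. By seed, miR-17-5p goes with miR-20a-5p and miR-19a-3p with miR-19b-3p.
miR-17-5p: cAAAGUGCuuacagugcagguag
miR-20a-5p: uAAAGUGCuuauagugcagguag
miR-18a-5p: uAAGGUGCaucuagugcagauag
miR-19a-3p: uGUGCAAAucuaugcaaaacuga
miR-19b-3p: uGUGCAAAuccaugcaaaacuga
miR-92a-3p: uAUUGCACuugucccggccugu
MIR17HG (NCBI Gene 407975) lies on the plus strand of chromosome 13 from 91999940 to 92049846 on hg19. It had 29 and 18 counts at 4 h and 9 and 11 at 8 h, and normalized counts of 26.02, 16.32, 9.205 and 13.67 in the same order. Both 8 h libraries were lower, and replicate 1 at 4 h stood highest. The means were 21.17 ± 6.86 (SD, n = 2) and 11.44 ± 3.16 (SD, n = 2), with a log2 fold change of -0.91, a standard error of 0.43 and an edgeR adjusted p (Benjamini-Hochberg) of 0.105. At these counts the 95% interval reached from -1.81 to -0.0022, and a change could not be called.

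H19, an imprinted RNA of fetal tissue that hosts miR-675, was not tested. The gene (NCBI Gene 283120) is on the minus strand of chromosome 11 from 2016396 to 2025782 on hg19. It had 3 and 2 counts at 4 h and 2 and 2 at 8 h, which is 0.291, 0.196, 0.207 and 0.248 CPM. All libraries were at or under 3 counts, the limit that a count of 0 allows, so no fold is given. IGF2, the growth factor of the same imprinted locus, had 0 counts in all 4 libraries.

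Rows of microRNA precursors held few or no counts. The hosts H19, MIR22HG, MIR17HG and DANCR hold 9 microRNA genes, of which 4 were listed, MIR22, MIR19B1, MIR675 and MIR4449, with 0 counts each in every library. In the locus of PVT1, MIR1204 had 2 and 6 counts at 4 h against 9 and 8 at 8 h, which was too low to be tested, MIR1206 had at most 1 count and MIR1205, MIR1207 and MIR1208 had 0. A library of long polyadenylated RNA does not catch mature microRNAs, so this says nothing of their levels. Of 36 other microRNA host genes listed, 17 were retained, and 1 was higher, 3 were lower and 13 did not pass, with a median of -0.04. This is 5.88% higher and 17.6% lower, beside 19.9% and 18.8% of all retained genes. Without replicate 2 at 8 h, 2 were higher. MIR31HG rose from 447.8 and 502.2 normalized counts at 4 h to 898 and 816.3 at 8 h, a log2 fold change of 0.85 with a standard error of 0.10. MIR503HG fell from 46.66 and 68.9 to 14.32 and 13.67, or by 2.03 on the log2 scale. MIR210HG, whose microRNA is induced by low oxygen, fell by 1.27, and MIR137HG fell by 0.81.

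The machinery that cuts and uses microRNAs was read from a list of 18 genes. Of these, 17 were retained, LIN28B not, and 5 were higher, 3 lower and 9 not past the test, with a median of -0.09. This is 29.4% higher and 17.6% lower, near the 19.9% and 18.8% of all retained genes. With library size alone the split was 4 higher and 7 lower, while 3 were higher without replicate 1 at 4 h and 5 were lower without replicate 1 at 8 h. DDX5, a helicase of the nuclear Drosha complex, fell, with 4356 and 3982 normalized counts at 4 h and 2709 and 2227 at 8 h, a log2 fold change of -0.75 with a standard error of 0.09. DROSHA, the nuclease that cuts the primary transcript, fell by 0.64 and its partner DGCR8 by 0.48. AGO2, the slicing Argonaute protein, was the 1 DEG of the list, at 157.9 and 183.1 at 4 h against 361 and 326.8 at 8 h, a log2 fold change of 1.01 with a standard error of 0.13 and an adjusted p by edgeR (Benjamini-Hochberg) of 8.67e-06. DICER1, the cytoplasmic nuclease, rose by 0.97 and AGO3 by 0.74, while the silencing cofactors TNRC6C and TNRC6A rose by 0.64 and 0.32.

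DANCR was higher at 8 h, by 0.40 on the log2 scale, and the call rested on single libraries. The gene (NCBI Gene 57291) is on the plus strand of chromosome 4 from 53578492 to 53589790 on hg19. Its exons share 270 bases with LINC01618 on the same strand and 127 bases with ERVMER34-1 on the opposite strand, so part of its counts is uncertain. The window around its start is shown for comparison with MIR22HG, on GRCh38.p14 and with the same capitals, and it holds the GC box 3 times and TGACG 0 times.
DANCR, chr4:52712144-52712443, plus strand: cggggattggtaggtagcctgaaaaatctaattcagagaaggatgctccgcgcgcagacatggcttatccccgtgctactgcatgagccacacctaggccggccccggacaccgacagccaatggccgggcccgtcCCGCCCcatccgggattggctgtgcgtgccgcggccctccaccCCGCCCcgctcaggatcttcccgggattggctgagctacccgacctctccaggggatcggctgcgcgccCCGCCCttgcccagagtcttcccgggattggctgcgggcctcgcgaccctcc
The normalized counts were 295.2 and 323.6 at 4 h against 474.5 and 338 at 8 h. Replicate 1 at 8 h stood well above the rest, while replicate 2 at 8 h was just above the 4 h libraries. The means were 309.4 ± 20.1 (SD, n = 2) and 406.3 ± 96.6 (SD, n = 2), the 95% interval of the log2 fold change ran from 0.12 to 0.69, and the adjusted p by edgeR with Benjamini-Hochberg adjustment was 0.0258. It was 0.515 without replicate 1 at 8 h, with a log2 fold change of 0.13, 0.192 without replicate 1 at 4 h and 0.0648 without replicate 2 at 4 h. Without replicate 2 at 8 h the log2 fold change was 0.62. DANCR also failed with DESeq2, at an adjusted p of 0.0916, and with library size alone, at 0.0929.

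CYTOR did not pass the test. The gene (NCBI Gene 112597) lies on the plus strand of chromosome 2 from 87754300 to 87936259 on hg19, and has a near-identical copy in MIR4435-2HG, on the minus strand of the same chromosome from 111763592 to 112280953. One stretch of 75 bases, the length of the reads, is shown in both genes because reads with several positions were discarded, and the capital marks the 1 base that differs.
CYTOR, chr2:87755090-87755164, plus strand: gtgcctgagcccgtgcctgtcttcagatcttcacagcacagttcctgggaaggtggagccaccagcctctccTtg
MIR4435-2HG, chr2:112252462-112252536, minus strand: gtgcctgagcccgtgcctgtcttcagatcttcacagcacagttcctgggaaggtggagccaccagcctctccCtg
Windows of 75 bases were taken from the exons of the canonical transcript of each gene. For CYTOR this transcript has 1020 bases, where all its annotated exons have 17782, and the other exons were not examined. Of 132 such windows of CYTOR, 128 also had a position elsewhere in the genome with at most 2 mismatches. This was 97%, against 47.5% for MIR4435-2HG and at most 2.72% for the other 8 RNAs. The number of mismatches allowed in the mapping is not given in the sources used here, so the counts of CYTOR are uncertain both in level and in whose reads they hold.

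CYTOR had normalized counts of 47.56 and 58.93 at 4 h against 79.77 and 59.64 at 8 h. Replicate 1 at 8 h was the highest library, and replicate 2 at 8 h was just above replicate 2 at 4 h. The means were 53.24 ± 8.04 (SD, n = 2) and 69.71 ± 14.2 (SD, n = 2), and the log2 fold change of 0.40 had a 95% interval from -0.10 to 0.90 and an edgeR adjusted p (Benjamini-Hochberg) of 0.191. MIR4435-2HG had 235.1 and 224.8 at 4 h against 251.6 and 224.9 at 8 h, with a log2 fold change of 0.05 and an adjusted p of 0.775.

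Levels between RNAs were compared as normalized counts per kilobase of all annotated exons. NEAT1 was highest at 4 h, with 899.2 ± 32.1 (SD, n = 2), and MIR22HG followed with 620.1 ± 32.6 (SD, n = 2), TUG1 with 325.8 and MALAT1 with 194.8. DANCR had 30.4, PVT1 4.985, CYTOR 2.994, MIR17HG 1.642 and H19 0.6507, and no neighbours in this order overlapped between libraries at 4 h. At 8 h, MIR22HG with 494.6 ± 22.8 (SD, n = 2) stood above NEAT1 with 350.6 ± 55.7 (SD, n = 2), followed by TUG1 with 229.8 and MALAT1 with 185.4. The rest of the order was as at 4 h, with DANCR at 39.91, PVT1 at 8.706 and CYTOR at 3.92, and the libraries of MIR17HG at 0.8869 and H19 at 0.6543 overlapped. Annotated exons of PVT1 add up to 25.43 kilobases over many transcripts and those of its canonical transcript to 2.444. The levels thus depend on the transcript chosen, at the top of the order as well. NEAT1 was divided by 22.77 kilobases, which spans its long form, while its short form ends at position 65193984. A shorter length would raise NEAT1, so its place below MIR22HG at 8 h depends on this choice. Per kilobase of the canonical transcripts, PVT1 and CYTOR overlapped at 4 h with means of 51.87 and 52.2, and DANCR and PVT1 overlapped at 8 h with means of 102.6 and 90.59.

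Protein-coding genes beside the RNAs were examined next. FRMD8, 9249 bases before NEAT1, had a log2 fold change of 0.02. MORC2, a chromatin protein that starts 471 bases from TUG1 on the opposite strand, also had 0.02, and SMTN on the other side had 0.03. Near the others, TLCD2 by MIR22HG had 0.04, MRPL23 by H19 had 0.17 and USP46 by DANCR had -0.25, none past the test. SLITRK5, 3651413 bases from MIR17HG, fell by 1.26 from 150.8 and 199.4 to 66.48 and 80.76. The neighbours of CYTOR, RGPD1 and PLGLB2, had 0 counts in all libraries, and GPC5, SERPINF2, GSDMC and RASL11B did not pass the filter.

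The profile over the 4 libraries was compared with those of 9378 other genes with a mean normalized count of 100 or more, as the distance between centred log2-CPM values, for the 3 RNAs with the smallest adjusted p. Nearest to NEAT1 were KIF23 at a distance of 0.0637, with means of 659.2 at 4 h and 260.3 at 8 h, ANLN at 0.0884 and SHCBP1 at 0.102. For TUG1 they were TRO at 0.0328, SUGP2 at 0.0332 and C1orf198 at 0.0334. PVT1 was closest to RPP38 at 0.0305, LRIG2 at 0.0373 and SINHCAF at 0.0442. With 4 libraries in 2 groups, such a distance reflects mainly the same change between the times and says nothing more.

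The RNAs were set beside all other long non-coding genes as typed by RefSeq, read-through loci included. Of 1924 such genes listed, 452 were retained, and 21 were higher, 125 lower and 306 not past the test, which is 4.65% higher and 27.7% lower, beside 19.9% and 18.8% of all retained genes. With the correction of each library for its trend with abundance the split was 33 higher and 100 lower, and the genes called lower were 76 without replicate 1 at 4 h, 68 without replicate 2 at 4 h and 63 with DESeq2. The median log2 fold change was -0.34, and 4 were DEGs with higher and 53 with lower levels, where 1.45% and 3.88% of all retained genes were. The highest rises among these DEGs were MAP4K3-DT, at means of 36.49 and 98.75, and IGFBP7-AS1, at 32.88 and 84.04, both of them named after their values were seen. Some DEGs with lower levels were near 0 at 8 h and passed the filter through the 4 h libraries alone. HOTAIR had 18 and 14 counts at 4 h against 2 and 1 at 8 h, and DDX11-AS1 had 13 and 15 against 0 and 0. For such genes only a fall could be called.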

How the data were processed

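Total RNA was isolated and stranded libraries of polyadenylated RNA were prepared from 150 ng per library, and 75-base single reads were sequenced. The authors mapped these to hg19 with Bowtie (1.2.0 in the submitters' processing notes, which also name deepTools 2.4.1), kept reads with a single position and deposited the raw counts of each gene, 1 file per library, without normalization or pooling. The counting tool, the annotation and the use of strand are not given in the sources used here, so genes that overlap are uncertain. Mapping without gaps loses reads across splice junctions, which lowers spliced RNAs such as PVT1 against NEAT1 and MALAT1.

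Of 23459 genes, 23308 were given a symbol by RefSeq (GRCh38.p14). The 12559 genes with more than 1 CPM in 2 or more libraries were normalized by TMM and tested in edgeR 4.0.16 (R 4.3.3) with time as the only term, and adjusted by Benjamini-Hochberg over all retained genes. A CPM of 1 was 8.064 to 10.32 counts, and the biological coefficient of variation was 6.52%. With 2 libraries per time, no permutation test could pass 0.05. Alternatives were limma-voom (limma 3.58.1), DESeq2 1.42.0, other scalings and filters, a replicate block, a trend correction and each library left out. On counts simulated for 12559 genes, edgeR recovered 54% of changes of 0.5 and 95% of changes of 1.5 on the log2 scale. It made 4 false calls there, and 0 calls when no gene was changed. The simulation changed a small part of the genes, equally up and down, and gave each gene the spread of the trend with abundance. In the data far more genes were called, so these figures need not hold for them.

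Positions came from GENCODE on GRCh37, the assembly behind hg19. Copies of 75-base windows of the canonical exons were sought with minimap2 2.31. Promoters were available for 7 of the 9 RNAs. Named genes were the 9 RNAs, the largest rise and fall of each list, neighbours, host genes past the test and nearest profiles. The RNAs, the lists (paraspeckles, nuclear speckles, nuclear RNA decay, microRNA processing, markers) and the rule were chosen with earlier results of these data known. Some results are not reported here.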

Additional observations from a re-analysis of the deposited data

How the results depend on the processing

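NEAT1, PVT1 and TUG1 kept their direction and their call under all 12 alternatives, and the count of DEGs among the 9 RNAs stayed 1. RNAs called higher went from 2 to 1 with DESeq2 and to 1 with library size alone, where DANCR was lost, and ranged from 1 to 2 when libraries were left out. RNAs called lower ranged from 2 to 3. The log2 fold change of MALAT1 turned to 0.048 without replicate 2 at 8 h and was -0.20 without replicate 1 at 8 h. Library size alone moved the median of all genes to -0.11, and the calls over all genes to 1698 higher and 3289 lower from 2500 and 2367. MIR17HG was not retained at a CPM above 2.

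Paraspeckle proteins called higher went from 2 to 1 with DESeq2 and to 1 with library size alone, and ranged from 1 to 2 with libraries left out. Nuclear RNA decay genes called higher went from 3 to 1 with library size alone and to 0 with DESeq2, where 2 had an unadjusted p below 0.05 and limma-voom called 3, and ranged from 1 to 3. Those called lower went from 10 to 5 with DESeq2 and ranged from 6 to 11. Nuclear speckle proteins called lower went from 11 to 8 with DESeq2 and to 14 with library size alone. They were 13 with the replicate block and 13 with the trend correction. MicroRNA processing genes called lower went from 3 to 7 with library size alone, to 5 with the replicate block and to 5 with the trend correction, and ranged from 3 to 5, while those called higher ranged from 3 to 5. Other host genes called higher went from 1 to 2 with the replicate block and to 2 with the trend correction, and ranged from 1 to 2. Other long non-coding genes called lower went from 125 to 63 with DESeq2 and ranged from 68 to 129, and those called higher went from 21 to 33 with the trend correction. Each range given in this paragraph is over the fits with a library left out. DESeq2 and the fits without a 4 h library called fewer of all genes, 1800 and 1503 for DESeq2, and the causes were not tested.

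The deviations of same-numbered libraries correlated at 0.0484 over 12559 genes and 0.114 over the 9396 whose mean count was 100 or more. The labels do not say that a number marks a shared culture or day, so the libraries were not treated as paired. The replicate block gave 2829 genes higher and 2664 lower, and 2 of the RNAs higher and 3 lower. Fits without a library assume that the lone library of its time varies like the others. Low counts limited MIR17HG and H19, and copies limited CYTOR.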
